A study of Mus musculus with 24 samples.

Results

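Cfd (ENSMUSG00000061780) is the mouse gene for complement factor D, also called adipsin. It was found by its symbol, as 1 of the 54532 genes and 1 of the 22046 protein-coding genes of the deposited expression table, and it is described in all 24 libraries. The libraries were made from polyadenylated RNA of whole inguinal (iWAT) and epididymal (eWAT) white fat of C57BL6 mice. All mice carried an adeno-associated virus (AAV), either for irisin, a secreted fragment of the membrane protein FNDC5, or for green fluorescent protein (GFP), and were fed either chow or a high-fat diet (HFD), over 18 weeks. The 8 groups of 3 libraries were iWAT irisin HFD, iWAT GFP HFD, iWAT irisin chow and iWAT GFP chow, and the same 4 in eWAT. The sources used here do not give the promoter of the vectors, the age of the mice, whether libraries of the same group were taken from different animals, or whether libraries of both depots came from the same mice. P-values therefore speak of the spread among these libraries, which may be technical. Cfd was chosen with its levels in these libraries known, among them its lower level on HFD in iWAT of GFP mice. Its levels and differences are therefore a description and carry no test. Tests are given for other genes only. The gene lists were also chosen with earlier results of these data known. Their counts and medians, set beside those of all genes, are therefore descriptions too.

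Factor D is a serine protease of the alternative complement pathway. It cleaves factor B once factor B is bound to C3b, and this step forms the C3 convertase that amplifies complement. Most other complement proteins of the blood come from the liver, whereas factor D in the mouse comes mainly from adipocytes, and the gene was found through its induction as preadipocytes become fat cells. Low Cfd in the fat of obese mouse models is a long-known trait, and the gene belongs to a set of adipocyte genes that depend on the phosphorylation state of the nuclear receptor PPARgamma.

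Cfd lies on chromosome 10 from 79890853 to 79892655 on the plus strand, with 922 bases of exon in the table. It sits downstream of 2 other serine protease genes, Prtn3 and Elane, which encode proteinase 3 and neutrophil elastase of neutrophil granules. RefSeq gives the start of Cfd at the same base as the deposited table. For Elane and Prtn3 the deposited table has earlier starts, at 79886247 and 79874476. The RefSeq windows below therefore lie partly (Elane) or wholly (Prtn3) within the gene as counted. The 250 bases before the RefSeq start of each of the 3 genes are printed here because Prtn3 and Elane, the protease genes next to Cfd, fell on HFD in 3 or more of the 4 diet comparisons. They are read 5′ to 3′ from build GRCm38.p6, on the plus strand, at chr10:79890603-79890852 for Cfd, chr10:79886062-79886311 for Elane and chr10:79879417-79879666 for Prtn3. Capitals mark matches to the motifs searched.
Cfd: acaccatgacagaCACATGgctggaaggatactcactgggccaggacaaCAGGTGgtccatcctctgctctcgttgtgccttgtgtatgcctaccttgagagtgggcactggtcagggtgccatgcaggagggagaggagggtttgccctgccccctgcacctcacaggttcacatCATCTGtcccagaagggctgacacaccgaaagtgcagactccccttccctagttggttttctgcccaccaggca
Elane: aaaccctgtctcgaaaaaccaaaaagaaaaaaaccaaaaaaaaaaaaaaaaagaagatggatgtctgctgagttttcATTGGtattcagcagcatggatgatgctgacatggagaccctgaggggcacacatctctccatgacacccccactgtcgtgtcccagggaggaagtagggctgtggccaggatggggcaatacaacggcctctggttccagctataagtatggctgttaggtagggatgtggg
Prtn3: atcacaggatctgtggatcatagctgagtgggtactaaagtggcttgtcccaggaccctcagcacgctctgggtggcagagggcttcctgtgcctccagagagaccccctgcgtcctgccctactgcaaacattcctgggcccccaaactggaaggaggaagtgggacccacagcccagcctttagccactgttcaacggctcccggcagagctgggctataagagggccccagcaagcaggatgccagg
Each motif was searched on both strands. The first was an E-box, CANNTG, which a basic helix-loop-helix factor can bind. The Cfd window held 3 of them, which begin 237, 201 and 74 bases before the start, and an E-box is present in 66.2% of the 32851 promoter windows of the same length. The Cfd window held no TATA box (TATAAA, in 12.4% of the windows) and no nuclear receptor half-site. The half-site was searched as AGGTCA, which 14.0% of the windows hold. It also held no C/EBP core in the form TTGCNNAA, present in 9.56% of the windows, and no GC box in the form GGGCGG, present in 32.7%. The CCAAT box, searched as these 5 letters, was absent from it too. The Elane window held 1 CCAAT box, read on the minus strand and beginning 173 bases before the start, a motif present in 33.8% of the windows. The Prtn3 window held no match.

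Cfd was the most abundant protein-coding transcript per length in 11 of the 12 chow libraries and ranked 2 in the other, eWAT GFP chow 2. Values are in FPKM, the authors' unit, in which fragments are scaled to exon length and to a size factor of the library, so levels can be compared between genes. That size factor is not the plain sum of the gene reads, and the deposited values were used as they stand. In iWAT, Cfd had 929, 3891 and 2437 FPKM in the irisin HFD libraries. It had 733, 858 and 4075 FPKM in the GFP HFD libraries. On chow it had 13612, 16686 and 17031 FPKM in the irisin libraries, and 20087, 13789 and 17814 FPKM in the GFP libraries. All 6 HFD libraries of iWAT were below all 6 chow libraries.

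In eWAT, Cfd had 429, 1812 and 259.3 FPKM in the irisin HFD libraries. It had 155, 259.5 and 193 FPKM in the GFP HFD libraries. The chow libraries held 14363, 16431 and 15543 FPKM with irisin, and 12506, 9158 and 15376 FPKM with GFP. Again no HFD library reached the level of a chow library. Across both depots the lowest chow library was 2.25 times the highest HFD library.

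**Figure D1:**
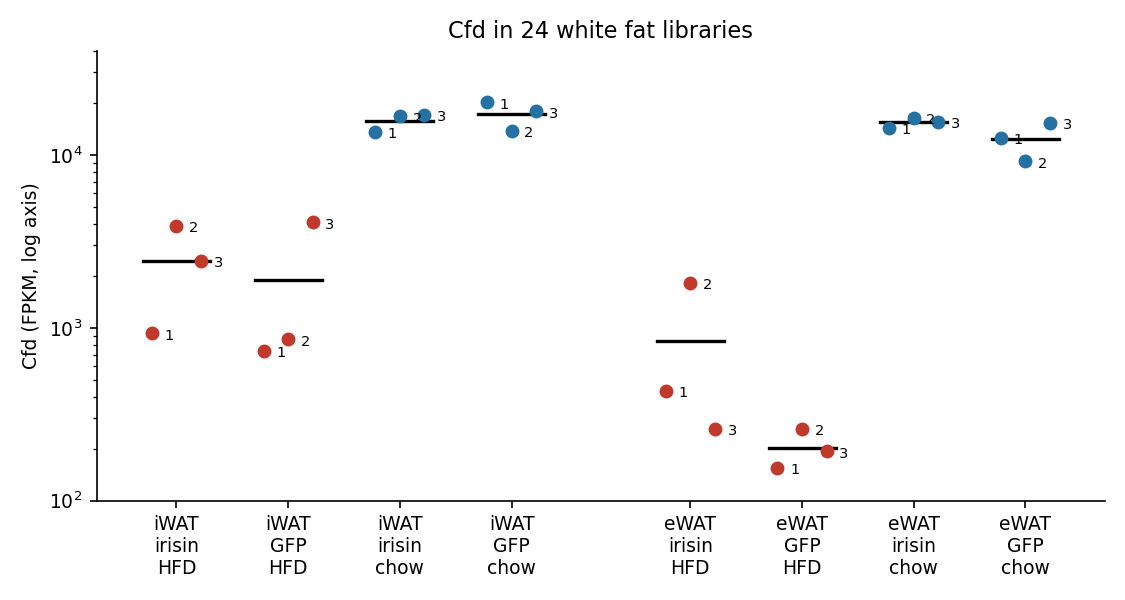
Cfd in FPKM on a log axis in each of the 24 libraries, with replicate numbers beside the points, the group mean as a bar, HFD in red and chow in blue. The 12 HFD libraries lie between 155 and 4075 FPKM and the 12 chow libraries between 9158 and 20087 FPKM.

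By group mean the order was iWAT GFP chow, iWAT irisin chow, eWAT irisin chow, eWAT GFP chow, iWAT irisin HFD, iWAT GFP HFD, eWAT irisin HFD and eWAT GFP HFD. The 4 HFD means were 2419 ± 1481 FPKM in iWAT irisin, 1889 ± 1894 FPKM in iWAT GFP, 834 ± 852 FPKM in eWAT irisin and 202 ± 53.1 FPKM in eWAT GFP (SD, n = 3 each). The chow means were 15776 ± 1882 FPKM in iWAT irisin, 17230.0 ± 3189 FPKM in iWAT GFP, 15446 ± 1037 FPKM in eWAT irisin and 12347 ± 3112 FPKM in eWAT GFP (SD, n = 3 each). Only the step between eWAT GFP chow and iWAT irisin HFD separated neighbouring groups whose libraries did not overlap. Each of the other 6 steps joined groups that overlapped.

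As a share of all reads assigned to genes, Cfd took 0.0142% to 0.358% of a library on HFD and 0.827% to 1.87% on chow. Its reads numbered between 2343 and 337438 per library, so that counting error was at most 2.07% of a value and far below the spread between libraries. None of the 919 stretches of 50 bases in the 2 annotated Cfd transcripts occurs in any of 141765 other mouse transcripts, so reads of that length that match Cfd exactly have no other annotated transcript to match.

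On a log2(FPKM + 0.5) scale, the difference of HFD minus chow was -2.93 ± 0.68 in iWAT of irisin mice and -3.64 ± 0.68 in iWAT of GFP mice (SE from the fit over all genes of a depot). In eWAT it was -4.72 ± 0.56 with irisin and -5.93 ± 0.56 with GFP. As fold changes, HFD was lower by 7.60 and 12.4 times in iWAT of irisin and GFP mice, and by 26.3 and 60.9 times in eWAT of irisin and GFP mice. Of the 16274 genes tested in eWAT, none had a more negative difference in GFP mice and 1 had one in irisin mice. Of the 16125 genes tested in iWAT, 39 had a more negative difference in irisin mice and 2 in GFP mice. In whole tissue, fewer cells of a type and less RNA per cell cannot be told apart.

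A single library moved some of these differences. Without iWAT GFP HFD 3, the highest HFD library, the difference in iWAT of GFP mice was -4.42. Without eWAT irisin HFD 2 the difference in eWAT of irisin mice was -5.53, and without eWAT irisin HFD 3 it was -4.13. Without iWAT irisin HFD 1 the difference in iWAT of irisin mice was -2.35. With any 1 library left out, each of the 4 differences stayed at -2.35 or below.

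The spread of Cfd was far wider on HFD than on chow. The highest HFD library exceeded the lowest 26.3 times, and the highest chow library exceeded the lowest 2.19 times. Within groups the SD of log2 Cfd was 1.05 in iWAT irisin HFD, 1.37 in iWAT GFP HFD and 1.45 in eWAT irisin HFD, but 0.37 in eWAT GFP HFD. On chow it was 0.18 and 0.28 in iWAT of irisin and GFP mice, and 0.10 and 0.38 in eWAT of irisin and GFP mice. In the 3 wide HFD groups the highest library exceeded the lowest 4.19, 5.56 and 6.99 times.

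Between irisin and GFP, Cfd overlapped in every depot and diet. On HFD the difference of irisin minus GFP was 0.59 ± 0.68 in iWAT and 1.57 ± 0.56 in eWAT on the log2 scale. On chow it was -0.12 ± 0.68 in iWAT and 0.35 ± 0.56 in eWAT. The eWAT mean on HFD was 4.12 times higher with irisin than with GFP, but the lowest irisin library, at 259.3 FPKM, was just under the highest GFP library, at 259.5 FPKM. Without eWAT irisin HFD 2 this log2 difference was 0.75, and without eWAT irisin HFD 3 it was 2.15. In iWAT on HFD it was 0.14 without irisin HFD 2, 0.14 without GFP HFD 1, 0.26 without GFP HFD 2, 1.17 without irisin HFD 1 and 1.38 without GFP HFD 3. On chow in iWAT the sign turned, to 0.0023, without GFP chow 1.

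For the background of these vector comparisons, limma called 0 of 16125 genes in iWAT and 0 of 16274 genes in eWAT at an adjusted p under 0.05, a share of 0% on either diet. At an unadjusted p under 0.05 there were 431 genes in iWAT on HFD and 688 on chow, and 1510 in eWAT on HFD and 845 on chow. The voom fit on recovered reads also called 0 genes in each of the 4 comparisons.

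Between depots, the Cfd mean was 2.90 times higher in iWAT than in eWAT on HFD with irisin, where libraries overlapped. With GFP on HFD it was 9.34 times higher in iWAT, and the lowest iWAT library exceeded the highest eWAT library 2.83 times. On chow the iWAT mean was 1.02 times the eWAT mean with irisin and 1.40 times with GFP, and libraries overlapped in both. The difference of the diet effect between depots was not tested, because Cfd was chosen on its levels.

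Adipocyte content was set beside Cfd through 16 marker genes of fat cells, among them Adipoq (adiponectin), Plin1 (perilipin 1, which coats lipid droplets), Pparg and Lpl (lipoprotein lipase). None of the 16 was at 0 in a library. The geometric mean of the markers was 571 ± 55.2 FPKM in iWAT irisin HFD, 445 ± 138 FPKM in iWAT GFP HFD, 333 ± 69.7 FPKM in iWAT irisin chow and 421 ± 91.5 FPKM in iWAT GFP chow (SD, n = 3 each). In eWAT it was 330 ± 126 FPKM in irisin HFD, 223 ± 21.2 FPKM in GFP HFD, 395 ± 16.9 FPKM in irisin chow and 356 ± 49.9 FPKM in GFP chow (SD, n = 3 each). By these means the markers were no lower on HFD than on chow in iWAT, and lower on HFD in eWAT. In single-gene tests 5 of the 16 rose and 0 fell in iWAT irisin, where 9.01% of all genes were called, and none passed in iWAT GFP, where 2.37% were. In eWAT 2 fell with irisin and 8 with GFP, and none rose, against 17.4% and 26.5% of all genes called.

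Divided by this marker mean, Cfd was 1.79, 6.18 and 4.32 in iWAT irisin HFD, and 2.55, 1.69 and 7.53 in iWAT GFP HFD. The iWAT chow ratios were 35.2, 65.5 and 47.4 with irisin, and 58.1, 35.0 and 34.1 with GFP. The HFD ratios of eWAT were 1.63, 3.81 and 1.04 with irisin, and 0.728, 1.05 and 0.925 with GFP. The eWAT chow ratios were 36.6, 39.8 and 40.9 with irisin, and 38.4, 22.1 and 46.7 with GFP. Every HFD ratio was below every chow ratio.

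The log2 ratio on HFD minus that on chow was -3.72 in iWAT irisin, -3.69 in iWAT GFP, -4.39 in eWAT irisin and -5.26 in eWAT GFP. The markers themselves differed by 0.79, 0.05, -0.33 and -0.68 in the same 4 pairs. With Adipoq as the only marker the 4 log2 ratios were -3.20, -3.33, -3.76 and -4.32. Cfd was thus lower relative to the adipocyte markers in each pair, by 13.2, 12.9, 21.0 and 38.2 times with the 16 markers.

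**Figure D2:**
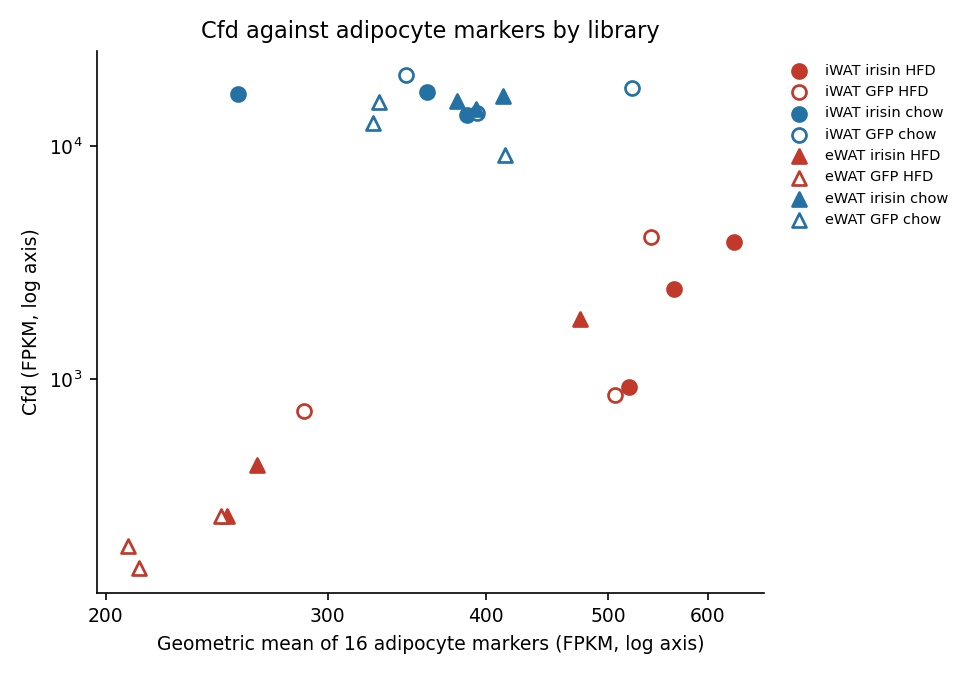
Cfd against the geometric mean of 16 adipocyte markers, both in FPKM on log axes, for 24 libraries; circles are iWAT, triangles eWAT, filled symbols irisin, open symbols GFP, red HFD and blue chow. The chow libraries form a band at 9158 FPKM or more, and the HFD libraries lie below it and climb with the markers.

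Within HFD groups, Cfd moved with the adipocyte markers and against the macrophage markers. Over the 12 HFD libraries, deviations from group means gave a Pearson r with Cfd of 0.80 for the mean of the adipocyte markers and -0.84 for the mean of 10 macrophage markers. Over the 12 chow libraries the same values were -0.42 and 0.005. For the other lists, r over the HFD libraries was -0.50 for T cell, -0.36 for B cell and -0.15 for skeletal muscle markers. It was 0.42 for mesothelium, -0.01 for epididymis and -0.03 for subcutaneous depot markers. These correlations describe libraries that share diet, and groups of 3. The library with the most Cfd in eWAT on HFD, irisin HFD 2, had the lowest summed macrophage markers there, at 915 FPKM, against 2582 to 4315 FPKM in the other 5. In iWAT on HFD, irisin HFD 2 and GFP HFD 3 had the most Cfd, with summed macrophage markers of 197 and 351 FPKM, against 344 to 661 FPKM in the other 4.

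Over diets, summed macrophage markers were 914.9 to 4315 FPKM on HFD and 618 to 1115 FPKM on chow in eWAT, and 197 to 661 FPKM on HFD and 169 to 1350 FPKM on chow in iWAT. None of the 10 markers was at 0 in all libraries of a group. Their part in the Cfd difference was not tested. Some libraries held other tissue. The 10 B cell markers summed to 527 FPKM in iWAT GFP HFD 1, against 2.21 to 28.4 FPKM in the other HFD libraries, and Cfd was lowest there among the iWAT HFD libraries. Skeletal muscle markers summed to 4388 FPKM in iWAT irisin chow 3, epididymis markers to 4022 FPKM in eWAT GFP HFD 3 and B cell markers to 143 FPKM in eWAT GFP chow 1. Without these 4 libraries the Cfd difference of HFD minus chow was -2.87 in iWAT of irisin mice and -3.19 in iWAT of GFP mice. In eWAT of GFP mice it was -5.88 without them, and in eWAT of irisin mice no library was left out. Muscle markers also summed to 90.3 and 299 FPKM in iWAT irisin chow 1 and 2, which stayed in these fits. The iWAT libraries of the other groups held 14.8 to 37.0 FPKM. In iWAT irisin 7 of the 8 tested muscle markers fell on HFD, and these calls are part of the 9.01% of all genes called.

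Of the 3 adipocyte hormones Adipoq, Lep and Retn, only Lep went against Cfd in all 4 comparisons. Retn fell in both eWAT comparisons and Adipoq in eWAT of GFP mice, while neither passed the test in iWAT. Lep, the gene for leptin, rose on HFD in all 4 comparisons by limma with Benjamini-Hochberg adjustment. Its levels were 727 to 2183 FPKM in the 12 HFD libraries and 109 to 356 FPKM in the 12 chow libraries, with no overlap. The log2 differences were 3.45 ± 0.38 in iWAT irisin (adjusted p = 0.00224) and 2.51 ± 0.38 in iWAT GFP (adjusted p = 0.0123). In eWAT they were 2.92 ± 0.26 with irisin (adjusted p = 0.000447) and 1.73 ± 0.26 with GFP (adjusted p = 0.00175).

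Retn, the gene for resistin, fell in eWAT with irisin (-2.20 ± 0.47, adjusted p = 0.0125) and with GFP (-3.44 ± 0.47, adjusted p = 0.00118). The irisin call was lost in a fit of the 2 compared groups alone. In iWAT its differences were 0.21 ± 0.33 with irisin (adjusted p = 0.722) and -0.92 ± 0.33 with GFP (adjusted p = 0.170). The iWAT GFP value passed the test only without GFP HFD 3, at -1.30. Retn averaged 593 ± 111 FPKM in iWAT irisin HFD, 431 ± 224 FPKM in iWAT GFP HFD, 508 ± 23.0 FPKM in iWAT irisin chow and 740 ± 44.1 FPKM in iWAT GFP chow. In eWAT it averaged 283 ± 255 FPKM in irisin HFD, 80.6 ± 12.6 FPKM in GFP HFD, 1003 ± 58.6 FPKM in irisin chow and 884 ± 174 FPKM in GFP chow (SD, n = 3 in each of the 8 groups).

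Adipoq fell in eWAT of GFP mice (-1.61 ± 0.31, adjusted p = 0.00454) and did not pass the test in eWAT of irisin mice (-0.96 ± 0.31, adjusted p = 0.0573). The eWAT irisin value passed without irisin HFD 2, at -1.37, and with voom. In iWAT its log2 differences were 0.28 ± 0.30 with irisin (adjusted p = 0.571) and -0.31 ± 0.30 with GFP (adjusted p = 0.604), and the GFP value turned to 0.04 without GFP HFD 1. Adipoq averaged 1722 ± 213 FPKM in iWAT irisin HFD, 1435 ± 518 FPKM in iWAT GFP HFD, 1415 ± 93.2 FPKM in iWAT irisin chow and 1691 ± 118 FPKM in iWAT GFP chow. In eWAT it averaged 1146 ± 616 FPKM in irisin HFD, 649 ± 57.9 FPKM in GFP HFD, 2034 ± 151 FPKM in irisin chow and 1995 ± 326 FPKM in GFP chow (SD, n = 3 in each of the 8 groups).

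By group means, Cfd per Lep was 1.69 and 1.62 in iWAT irisin and GFP HFD, against 128 and 78.8 in iWAT irisin and GFP chow. In eWAT it was 0.728 and 0.247 in irisin and GFP HFD, against 104 and 47.8 in irisin and GFP chow. Of 11 tested adipocyte hormone genes other than Cfd, 4 rose and 0 fell in iWAT of irisin mice, and 3 rose and 0 fell in iWAT of GFP mice. In eWAT 4 rose and 2 fell with irisin, and 4 rose and 4 fell with GFP. Over all genes tested, 4.82% rose in iWAT irisin, 1.44% in iWAT GFP, 9.47% in eWAT irisin and 14.7% in eWAT GFP, and 4.19%, 0.924%, 7.93% and 11.8% fell. The median log2 difference of the 11 genes was 0.28, -0.31, -0.18 and -0.40 in the same 4 comparisons, beside -0.02, -0.004, 0.003 and 0.004 over all genes. Nrg4, a secreted growth factor gene of fat, fell in eWAT with irisin (-1.29 ± 0.25, adjusted p = 0.00794) and with GFP (-1.42 ± 0.25, adjusted p = 0.00276). Metrnl, for the secreted protein meteorin-like, rose in eWAT with irisin (1.40 ± 0.37, adjusted p = 0.0260) and with GFP (2.16 ± 0.37, adjusted p = 0.00251). With irisin the Metrnl call was lost in 5 of the 6 fits that left out 1 library, with values of 1.04 to 1.92, and in a fit of the 2 compared groups alone.

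The comparison in iWAT of GFP mice rested on few libraries. Without GFP HFD 2 or without GFP chow 1, limma called 0 genes there in place of 382. Without GFP chow 2 it called 202 genes. Every call in that comparison, those of Lep, Prtn3, Plppr3, C2, C1s1 and Cyp2f2 included, was thus lost without GFP HFD 2 or GFP chow 1. The log2 differences themselves moved little. Without GFP HFD 2 and without GFP chow 1, Lep was at 2.44 and 2.50, Prtn3 at -3.28 and -3.30, Plppr3 at -1.31 and -1.52, C2 at -1.32 and -1.33, C1s1 at -0.998 and -0.80, and Cyp2f2 at -4.85 and -5.10.

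The table has 23 genes that begin or end within 100 kb of Cfd, of which 17 reached a mean of 0.5 FPKM in at least 1 group, and 16 were tested in each depot. In iWAT of irisin mice 1 rose and 3 fell, and in iWAT of GFP mice 0 rose and 2 fell. In eWAT 0 rose and 5 fell with irisin, and 0 rose and 6 fell with GFP. Against all genes, 4.19% fell in iWAT irisin, 0.924% in iWAT GFP, 7.93% in eWAT irisin and 11.8% in eWAT GFP. The genes that fell in at least 3 comparisons were Prtn3, Elane and Plppr3.

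Prtn3 had 0.657, 1.47 and 1.64 FPKM in iWAT irisin HFD, and 0.764, 0.819 and 2.15 FPKM in iWAT GFP HFD. In iWAT on chow it had 13.9, 26.2 and 25.5 FPKM with irisin, and 21.1, 10.5 and 23.1 FPKM with GFP. In eWAT it had 1.20, 2.41 and 0.700 FPKM in irisin HFD and 0.844, 0.574 and 0.678 FPKM in GFP HFD, against 11.2, 12.8 and 13.2 FPKM in irisin chow and 9.56, 6.20 and 14.6 FPKM in GFP chow. All 12 HFD libraries were below all 12 chow libraries, as for Cfd.

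The log2 difference of Prtn3 was -3.67 ± 0.40 in iWAT irisin (adjusted p = 0.00218) and -3.44 ± 0.40 in iWAT GFP (adjusted p = 0.0118). It was -2.83 ± 0.33 in eWAT irisin (adjusted p = 0.0011) and -3.08 ± 0.33 in eWAT GFP (adjusted p = 0.000552). The Cfd differences in the same 4 comparisons were -2.93, -3.64, -4.72 and -5.93. The fall of Prtn3 in iWAT of GFP mice was known when Cfd was chosen. Deviations of Prtn3 from its group means had a Pearson r of 0.79 with those of Cfd over 24 libraries and 0.92 over the 12 HFD libraries. Reads of Prtn3 numbered 17 to 70 on HFD and 149 to 745 on chow.

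Elane was low throughout, with 1 to 27 reads on HFD and 10 to 52 on chow. It had 0.0551 to 1.40 FPKM (median 0.378) in the HFD libraries and 0.733 to 3.11 FPKM (median 2.14) in the chow libraries, which overlapped. It fell in eWAT with irisin (-1.88 ± 0.29, adjusted p = 0.00312) and with GFP (-1.24 ± 0.29, adjusted p = 0.00984). Of its eWAT HFD libraries only irisin HFD 2 reached the 0.5 FPKM of the filter, at 0.730 FPKM. In iWAT it fell with irisin (-1.54 ± 0.41, adjusted p = 0.0433), and with GFP it was at -1.12 ± 0.41 (adjusted p = 0.177). The iWAT irisin call was kept without irisin HFD 2 and lost in the other 5 fits that left out 1 library, with values of -1.94 to -1.19 over the 6. It was also lost with no filter and with a pseudocount of 0.1. The eWAT GFP call was lost, at -0.99, without the 2 eWAT libraries rich in other tissue. For 1 FPKM of Elane a library held 525 to 16884 FPKM of Cfd on HFD and 4618 to 12496 FPKM on chow.

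Neutrophils are the cells in which Prtn3 and Elane are best known. The 10 neutrophil markers summed to 3.08 to 51.4 FPKM on HFD and 0.877 to 6.53 FPKM on chow in iWAT. In eWAT they summed to 11.2 to 26.4 FPKM on HFD and 1.97 to 4.02 FPKM on chow. Mpo (myeloperoxidase) did not exceed 0.550 FPKM on HFD or 0.0890 FPKM on chow, and Ly6g was at 0 in 23 of 24 libraries. In eWAT the sum did not overlap between diets, but most of it on HFD was S100a8, which is also made by monocytes. S100a8 averaged 15.9 ± 8.18 FPKM in eWAT irisin HFD and 12.1 ± 3.35 FPKM in eWAT GFP HFD, against 0.8997 ± 0.217 FPKM in irisin chow and 0.939 ± 0.453 FPKM in GFP chow (SD, n = 3 each). Of the 4 markers tested in eWAT, S100a8 rose with irisin, and S100a8 and Ctsg rose with GFP (Ctsg not with no filter or with voom). Of all genes 9.47% and 14.7% rose there. Ctsg did not exceed 0.266 FPKM on chow, so it passed the filter through HFD libraries only. It could therefore only be called higher on HFD. The median log2 difference of the 4 markers was -0.13 with irisin and 0.66 with GFP. Over the 24 libraries, Retnlg had its highest value, 2.50 FPKM, on chow, against at most 1.54 FPKM on HFD. The other listed markers had theirs on HFD, among them S100a9, at 19.0 FPKM, against at most 2.42 FPKM on chow. In iWAT the sums overlapped. The part of neutrophils in the Prtn3 difference was not tested.

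Plppr3 encodes a phospholipid phosphatase-related protein best known from neurons. It lies on the minus strand, and its start overlaps the start of Prtn3 in the deposited table. Without a stated strand setting, its reads and those of Prtn3 therefore cannot be fully told apart. It had 1.57 to 3.35 FPKM on HFD and 3.81 to 11.2 FPKM on chow, with no overlap over 12 libraries each. It fell by 1.65 and 1.505 on the log2 scale in iWAT of irisin and GFP mice, and by 1.15 and 1.20 in eWAT of irisin and GFP mice. The eWAT calls were lost at -1.05 without irisin chow 3 with irisin, and at -0.91 without the 2 libraries rich in other tissue with GFP.

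The other neighbours differed less or not in the same direction. Gm19810, a processed pseudogene between Elane and Cfd, had log2 differences of 0.07, -0.10, -0.17 and -0.63 in iWAT irisin, iWAT GFP, eWAT irisin and eWAT GFP, and passed in none. Med16, a Mediator subunit on the minus strand whose last base lies 2052 bases beyond Cfd, had 0.66, 0.55, 0.22 and 0.10. It passed in iWAT irisin (adjusted p = 0.048) and lost that call in each of the 6 fits that left out 1 library, with values of 0.49 to 0.78. R3hdm4 fell by 0.30 in eWAT irisin and by 0.32 in eWAT GFP, calls lost in 5 and 3 of the 6 fits that left out 1 library, with values of -0.37 to -0.26, and in fits of the 2 compared groups alone. Kiss1r, the kisspeptin receptor gene, fell in eWAT GFP (-0.91, adjusted p = 0.0131; lost, at -0.95, without the libraries rich in other tissue), and Palm, for paralemmin, fell in eWAT irisin (-0.85; lost in a fit of the 2 compared groups alone) and in eWAT GFP (-1.09). The remaining neighbours Gm48495, E130317F20Rik, Ptbp1, Arid3a, Wdr18, Tmem259, Gm26243 and Cnn2 passed in none of the 4, and Gm24019 was too low to test.

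**Figure D3:**
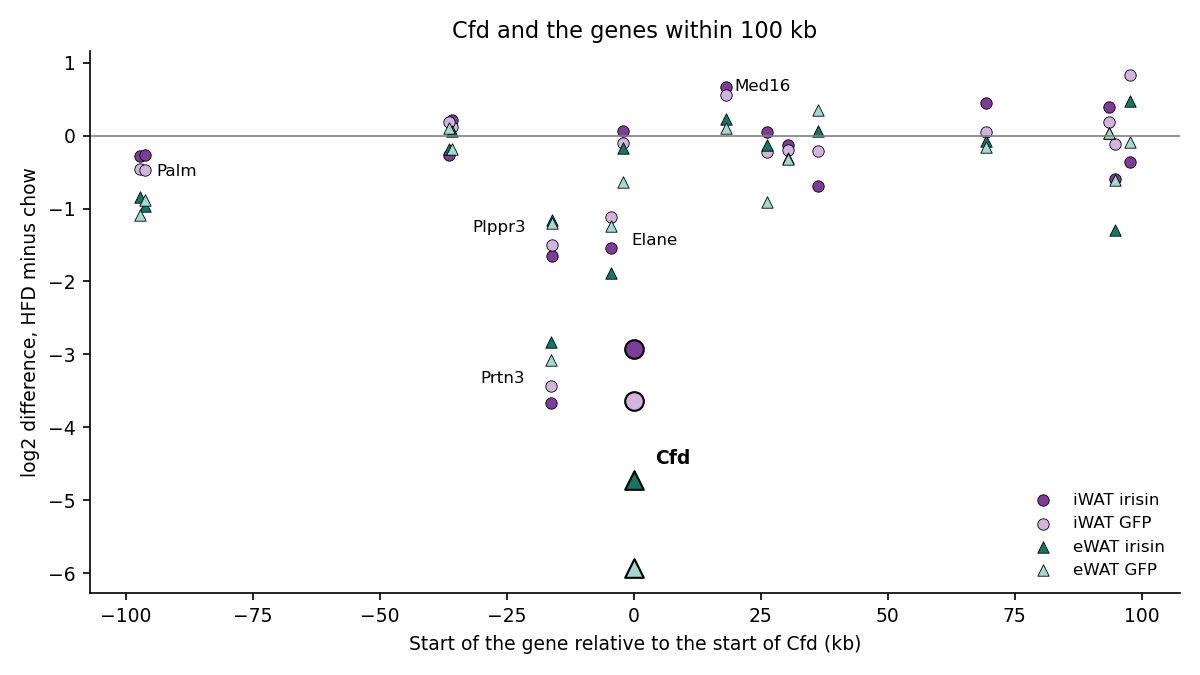
log2 difference of HFD minus chow (vertical axis) of Cfd, as larger symbols, and of tested genes within 100 kb, placed by the distance of their start from that of Cfd in kb; circles are iWAT, triangles eWAT, dark irisin and pale GFP. Prtn3 (-3.67 to -2.83) is the neighbour nearest to Cfd in size, followed by Elane and Plppr3, while genes that start after Cfd lie between -1.30 and 0.82.

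The other complement genes moved in both directions. The lists held 45 complement genes other than Cfd, of which 31 were tested in iWAT and 32 in eWAT. In iWAT 1 rose and 7 fell with irisin, and 0 rose and 2 fell with GFP. In eWAT 7 rose and 6 fell with irisin, and 10 rose and 9 fell with GFP. That is 25.8% of the tested complement genes in iWAT irisin, 6.45% in iWAT GFP, 40.6% in eWAT irisin and 59.4% in eWAT GFP, beside 9.01%, 2.37%, 17.4% and 26.5% of all genes tested. Because the lists were chosen with earlier results of these data known, the shares are a description and not a test of the pathway. The median log2 difference of the complement genes was -1.17 and -0.27 in iWAT of irisin and GFP mice, and -0.12 and -0.19 in eWAT of irisin and GFP mice, beside -0.02, -0.004, 0.003 and 0.004 over all genes. No complement gene was called between irisin and GFP in either depot or diet.

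The counts moved when 1 library was left out. In iWAT of irisin mice the 8 calls became 5 without irisin HFD 3, without irisin chow 1 or without irisin chow 2. Over the 6 such fits they ranged from 5 to 11, and a fit of the 2 compared groups alone gave 18. In iWAT of GFP mice the 2 calls became 0 without GFP HFD 2 or GFP chow 1, 1 without GFP chow 2 and 7 without GFP chow 3. In eWAT of irisin mice the 13 calls became 8 without irisin HFD 1. Over the 6 such fits they ranged from 8 to 18, and a fit of the 2 compared groups alone gave 6. Of the 10 macrophage markers, Cd14 fell and 9 did not pass in iWAT irisin (median log2 difference of -1.32), and 0 passed in iWAT GFP (median of -0.23). Their summed level in iWAT was 197 to 537 FPKM in irisin HFD and 351 to 661 FPKM in GFP HFD, against 898 to 1350 FPKM in irisin chow. In GFP chow it was 1090 and 1055 FPKM in replicates 1 and 2 and 169 FPKM in replicate 3. Their part in the complement differences was not tested.

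C3, the substrate of the convertase that factor D helps to form, was abundant in both depots. It had 139, 53.5 and 73.1 FPKM in iWAT irisin HFD and 192, 163 and 106 FPKM in iWAT GFP HFD, against 481, 469 and 443 FPKM in iWAT irisin chow and 403, 332 and 137 FPKM in iWAT GFP chow. It fell in iWAT of irisin mice (-2.50 ± 0.42, adjusted p = 0.00875), and in GFP mice it was at -0.82 ± 0.42 (adjusted p = 0.320). In eWAT it averaged 575 ± 198 FPKM in irisin HFD and 506 ± 68.3 FPKM in GFP HFD, against 903 ± 338 FPKM in irisin chow and 778 ± 43.2 FPKM in GFP chow (SD, n = 3 each). The eWAT differences were -0.65 ± 0.28 with irisin and -0.63 ± 0.28 with GFP, with adjusted p = 0.136 and 0.125 by limma. The GFP value passed in a fit of the 2 compared groups alone.

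Cfb, which encodes factor B, the substrate of factor D, was near 1 FPKM and passed the test in none of the 4 diet comparisons with 4 groups in the fit. In eWAT GFP it passed in a fit of the 2 compared groups alone. It averaged 1.38 ± 0.39 FPKM in iWAT irisin HFD, 1.49 ± 0.27 FPKM in iWAT GFP HFD, 1.498 ± 0.437 FPKM in iWAT irisin chow and 1.02 ± 0.18 FPKM in iWAT GFP chow (SD, n = 3 each). In eWAT it averaged 1.51 ± 0.39 FPKM in irisin HFD, 1.36 ± 0.094 FPKM in GFP HFD, 1.95 ± 0.94 FPKM in irisin chow and 2.24 ± 0.38 FPKM in GFP chow (SD, n = 3 each). Its log2 differences ran between -0.55 in eWAT GFP and 0.38 in iWAT GFP. With irisin they were -0.09 in iWAT and -0.24 in eWAT, signs that turned with 1 library left out.

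Cfp, for properdin, which stabilises the alternative pathway convertase, fell in iWAT of irisin mice (-1.92 ± 0.48, adjusted p = 0.0346). It averaged 25.8 ± 12.1 FPKM in irisin HFD, against 92.1 ± 6.43 FPKM in irisin chow (SD, n = 3 each). The call was kept without irisin HFD 1 and lost in the other 5 fits that left out 1 library, with values of -2.26 to -1.61 over the 6, and it was lost with no filter. In iWAT GFP Cfp was at -0.69 ± 0.48 (adjusted p = 0.461), and passed at -1.36 without GFP chow 3. In eWAT it was at -0.09 with irisin and -0.15 with GFP, and both signs turned under some settings.

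Masp1 encodes, in one of its splice forms, the protease that converts pro-factor D into factor D. It fell in eWAT with irisin (-1.54 ± 0.24, adjusted p = 0.00352) and with GFP (-1.14 ± 0.24, adjusted p = 0.0067). It had 0.337, 0.161 and 0.201 FPKM in eWAT irisin HFD and 0.130, 0.202 and 0.205 FPKM in eWAT GFP HFD, against 1.47, 1.78 and 1.61 FPKM in eWAT irisin chow and 1.76, 0.785 and 0.651 FPKM in eWAT GFP chow. All 6 HFD libraries were below all 6 chow libraries of that depot. None of these HFD libraries reached the 0.5 FPKM of the filter, and all of these chow libraries did. A call in eWAT could therefore only be lower on HFD, and its adjusted p is no separate support. The HFD values are also below the pseudocount of 0.5, so the log2 differences understate the ratio. Gene values do not separate the splice forms, and in iWAT Masp1 was too low to test, at 0.0682 to 0.521 FPKM.

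C2, the counterpart of factor B in the classical and lectin pathways, was the only one of the tested complement genes that fell in all 4 comparisons. It had 4.97, 7.78 and 5.11 FPKM in iWAT irisin HFD and 3.93, 3.70 and 6.33 FPKM in iWAT GFP HFD. Against these, iWAT chow held 20.8, 19.5 and 20.2 FPKM with irisin and 15.5, 15.2 and 9.76 FPKM with GFP. In eWAT it had 9.72, 13.4 and 3.99 FPKM in irisin HFD and 5.94, 5.82 and 5.99 FPKM in GFP HFD, against 31.2, 30.9 and 41.5 FPKM in irisin chow and 25.5, 26.8 and 38.9 FPKM in GFP chow. Within each depot no HFD library reached a chow library.

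The log2 differences of C2 were -1.71 ± 0.24 in iWAT irisin (adjusted p = 0.00475) and -1.45 ± 0.24 in iWAT GFP (adjusted p = 0.0157). In eWAT they were -2.01 ± 0.34 with irisin (adjusted p = 0.00456) and -2.24 ± 0.34 with GFP (adjusted p = 0.00168). The iWAT GFP call was also lost, at -1.35, without the 2 iWAT libraries rich in other tissue. Deviations of C2 from its group means had a Pearson r of 0.73 with those of Cfd over 24 libraries. The highest HFD libraries of C2 were those of Cfd: irisin HFD 2 and GFP HFD 3 in iWAT and irisin HFD 2 in eWAT.

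Of the 10 tested classical and lectin pathway genes, 4 fell and 0 rose in iWAT irisin, and 2 fell and 0 rose in iWAT GFP. In eWAT 3 fell and 1 rose with irisin, and 5 fell and 3 rose with GFP. Of all genes 4.19%, 0.924%, 7.93% and 11.8% fell in these 4 comparisons, and 4.82%, 1.44%, 9.47% and 14.7% rose. Fcna, for ficolin A, a lectin that starts the lectin pathway, fell in eWAT with irisin (-1.30 ± 0.27, adjusted p = 0.0104) and with GFP (-2.09 ± 0.27, adjusted p = 0.000929). In iWAT Fcna was not called, but it had 13.6, 7.36 and 7.54 FPKM in irisin HFD, against 50.5, 49.3 and 50.3 FPKM in irisin chow. In iWAT GFP it had 6.48, 12.7 and 10.8 FPKM on HFD, against 34.5, 42.7 and 1.45 FPKM on chow. C1s1, a C1 protease gene with a near copy in the mouse genome and so uncertain, was named after its values were seen. It fell in both iWAT comparisons, by 1.14 with irisin and 0.93 with GFP. The iWAT GFP call of C1s1 was lost in 4 of the 6 fits that left out 1 library, with values of -1.12 to -0.80. C1s1 also fell in eWAT GFP, a call lost in 2 of the 6 such fits, with values of -0.86 to -0.63. C1ra, likewise with a near copy, fell in iWAT irisin (-1.83 ± 0.27, adjusted p = 0.00533). In eWAT C1ra also fell with irisin (-0.92) and with GFP (-0.78), calls lost in 3 and 6 of the 6 such fits. C1qb, a subunit of C1q that macrophages make, rose in eWAT with irisin (1.32 ± 0.36, adjusted p = 0.0309) and with GFP (1.80 ± 0.36, adjusted p = 0.00516). With irisin this call was lost in 5 of the 6 fits that left out 1 library, with values of 1.03 to 1.85, and in a fit of the 2 compared groups alone.

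Of 8 tested complement regulators, 1 rose and 0 fell in iWAT irisin, none passed in iWAT GFP, 1 rose and 1 fell in eWAT irisin, and 1 rose and 2 fell in eWAT GFP. In iWAT irisin and eWAT irisin these counts are near the 9.01% and 17.4% of all genes called in either direction, and in iWAT GFP and eWAT GFP the shares of all genes were 2.37% and 26.5%. Cd59a, which blocks the membrane attack complex on the cell surface, rose in iWAT irisin (1.68 ± 0.25, adjusted p = 0.00567), but it has a near copy, Cd59b. Cd59a also rose in eWAT irisin (0.85), a call lost in 5 of the 6 fits that left out 1 library, with values of 0.66 to 1.06. Cfi, for factor I, which cuts C3b, rose in eWAT GFP (1.27 ± 0.34, adjusted p = 0.0195), a call lost in 4 of the 6 fits that left out 1 library, with values of 1.15 to 1.42. Clu, for clusterin, fell in eWAT GFP (-1.34 ± 0.30, adjusted p = 0.00842), and Vtn, for vitronectin, fell in eWAT irisin (-1.24 ± 0.30, adjusted p = 0.0185). Vtn lost its call without irisin HFD 1 (-1.25), irisin chow 2 (-1.21) and irisin chow 3 (-1.20). Of 3 tested genes of the terminal pathway, C7 fell in iWAT irisin (-2.45 ± 0.49, adjusted p = 0.0157). That call was lost without irisin HFD 3 (-1.91), irisin chow 1 (-2.21) and irisin chow 2 (-2.41). C6 fell in eWAT with irisin (-1.87 ± 0.40, adjusted p = 0.0123) and with GFP (-2.31 ± 0.40, adjusted p = 0.00273). The irisin call of C6 was lost in a fit of the 2 compared groups alone.

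Of 7 tested complement receptor genes, none passed in iWAT, whereas 5 rose and 0 fell in eWAT irisin and 6 rose and 0 fell in eWAT GFP. Of all genes 9.47% rose in eWAT irisin and 14.7% in eWAT GFP, and in iWAT 9.01% with irisin and 2.37% with GFP were called in either direction. C3ar1, the receptor of the C3 fragment C3a, rose by 2.63 ± 0.49 with irisin (adjusted p = 0.0071) and 3.48 ± 0.49 with GFP (adjusted p = 0.00129). Itgax, which encodes a chain of complement receptor 4, rose by 4.27 ± 0.67 with irisin (adjusted p = 0.00355) and 5.54 ± 0.67 with GFP (adjusted p = 0.000818). C5ar1 and C5ar2, receptors of the C5 fragment C5a, rose by 1.90 and 1.75 with irisin and by 2.94 and 2.32 with GFP. Without irisin HFD 1 the irisin calls of C5ar1 (1.76) and C5ar2 (1.73) were lost, and that of C5ar2 also without irisin chow 1 (1.61). Both were also lost in a fit of the 2 compared groups alone. These are genes of macrophages and other leukocytes. In eWAT 5 of the 10 macrophage markers rose and 0 fell with irisin, and 9 rose and 1 fell with GFP. Of all genes 9.47% were higher and 7.93% lower with irisin, and 14.7% and 11.8% with GFP. Itgam is on both the receptor and the macrophage list, and its rise with GFP is counted in both. The part of macrophages in the receptor differences was not tested.

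**Figure D4:**
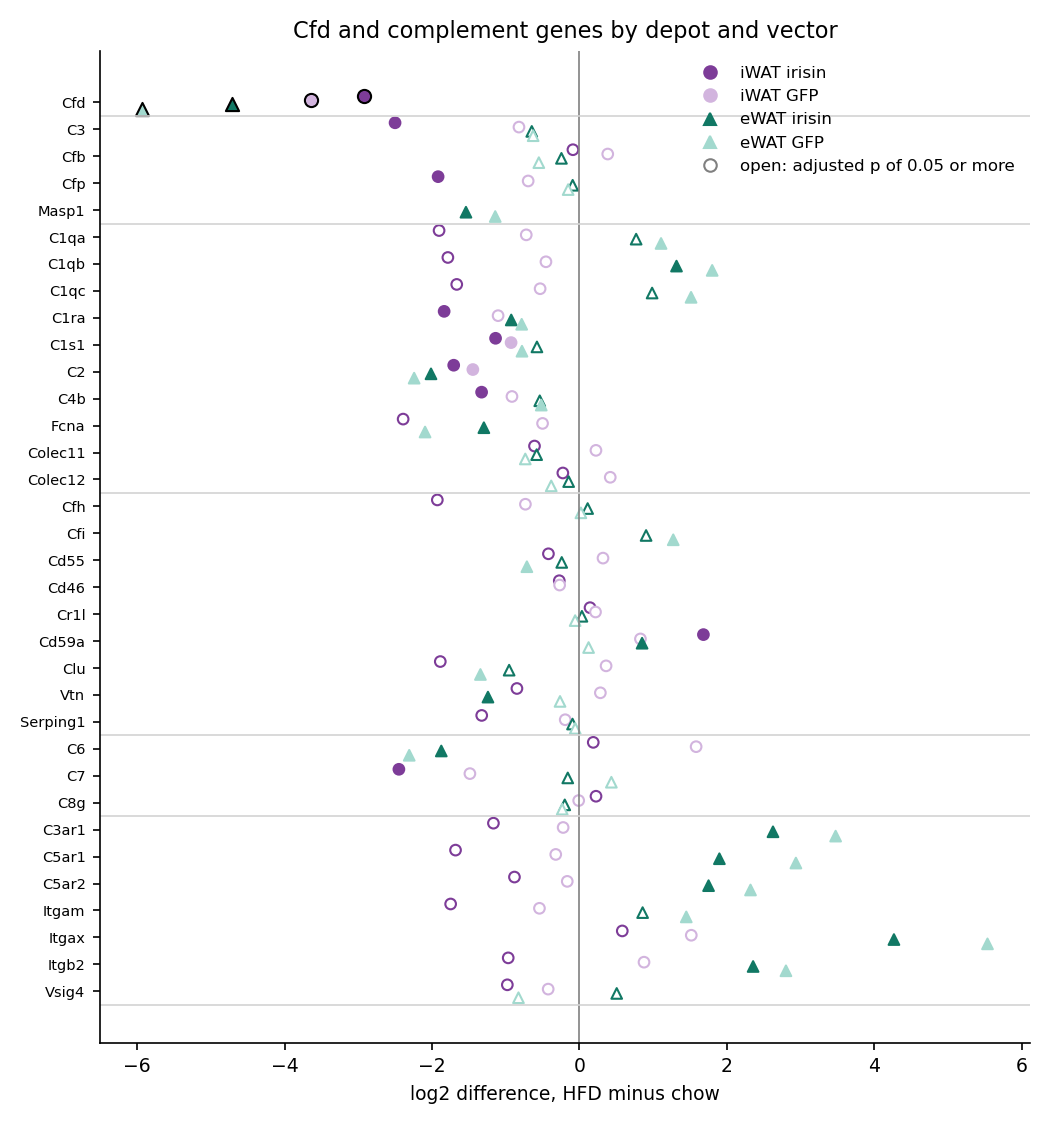
log2 difference of HFD minus chow for Cfd (top) and each tested complement gene, grouped by grey lines into alternative pathway, classical and lectin pathway, regulators, terminal pathway and receptors; circles are iWAT, triangles eWAT, dark irisin and pale GFP, and filled symbols below the Cfd row have a limma adjusted p under 0.05. C2 alone is filled on the lower side in all 4 comparisons, and the receptors in the bottom rows are filled on the higher side in eWAT.

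The genes tied to PPARgamma phosphorylation were set beside Cfd as 16 further members of that list. In iWAT irisin 1 rose and 1 fell, in iWAT GFP 0 rose and 1 fell, in eWAT irisin 1 rose and 4 fell, and in eWAT GFP 1 rose and 6 fell. The share of all genes called in either direction was 9.01%, 2.37%, 17.4% and 26.5%, so the iWAT counts are near it. The median log2 differences of the 16 genes were -0.08, -0.25, -0.33 and -0.70 in these comparisons, beside -0.02, -0.004, 0.003 and 0.004 over all genes. Cyp2f2, a cytochrome P450 gene, fell in all 4. It had 0.963, 7.81 and 1.35 FPKM in iWAT irisin HFD and 1.46, 1.02 and 5.26 FPKM in iWAT GFP HFD, against 87.4 to 127 FPKM in iWAT irisin chow and 63.9 to 120 FPKM in iWAT GFP chow. In eWAT it had 0.0767, 1.28 and 0.0315 FPKM in irisin HFD and 0.301, 0.116 and 0.0276 FPKM in GFP HFD, against 10.4 to 41.3 FPKM in irisin chow and 5.09 to 24.7 FPKM in GFP chow.

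The log2 differences of Cyp2f2 were -5.22 ± 0.63 in iWAT irisin (adjusted p = 0.00284), -5.23 ± 0.63 in iWAT GFP (adjusted p = 0.0118), -4.76 ± 0.66 in eWAT irisin (adjusted p = 0.00224) and -4.56 ± 0.66 in eWAT GFP (adjusted p = 0.00145). These understate the ratio where values are below the pseudocount of 0.5. In eWAT Cyp2f2 passed the filter through its chow libraries, with irisin HFD 2 the only HFD library above 0.5 FPKM. Its highest HFD libraries were again irisin HFD 2 and GFP HFD 3 in iWAT and irisin HFD 2 in eWAT. Selenbp1, for a selenium-binding protein, and Nr1d1, the nuclear receptor REV-ERBalpha of the circadian clock, fell in both eWAT comparisons. Selenbp1 was at -1.07 ± 0.27 with irisin and -1.47 ± 0.27 with GFP, and Nr1d1 at -1.33 ± 0.25 with irisin and -1.57 ± 0.25 with GFP. Selenbp1 lost its irisin call in 4 of the 6 fits that left out 1 library, with values of -1.43 to -0.72, and in a fit of the 2 compared groups alone. In iWAT neither passed.

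Likeness to Cfd was measured as Pearson r of log2(FPKM + 0.5) over the 24 libraries for the 11543 protein-coding genes that averaged 1 FPKM or more. Since the 2 diets form separate clusters of Cfd, this r reflects how genes differ between diets, and it is given as a description with no p. At r of at least 0.9 there were 81 genes, and at -0.9 or below 126, while the median over all genes was -0.04. With Spearman's rho these counts were 34 and 54.

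The 8 most like Cfd were Sqor (r = 0.967, rho = 0.914), a sulfide oxidising enzyme of mitochondria, Thra (0.965, 0.922), a thyroid hormone receptor, Maob (0.965, 0.896), a monoamine oxidase, Mogat1 (0.962, 0.834), which makes diacylglycerol, Fgf11 (0.961, 0.872), Timm21 (0.958, 0.938), of the mitochondrial import machinery, Slc1a3 (0.957, 0.957), a glutamate transporter, and Cyp2e1 (0.951, 0.864), a cytochrome P450. Cyp2e1 was abundant, at 19.9 to 908 FPKM (median 76.2) on HFD and 559 to 2187 FPKM (median 1204) on chow, which overlapped. Sqor had 9.37 to 30.3 FPKM (median 13.9) on HFD and 28.7 to 38.4 FPKM (median 33.4) on chow. The 4 least like Cfd were Cdk1 (r = -0.975), Nusap1 (-0.966) and Tpx2 (-0.962), which serve mitosis, and Mfge8 (-0.962), which binds dying cells to phagocytes. Cdk1 had 0.866 to 4.11 FPKM on HFD and 0.295 to 0.856 FPKM on chow, and Mfge8 had 106 to 549 FPKM on HFD and 39.3 to 68.1 FPKM on chow.

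With group means removed, differences in mean between diets, depots or vectors could not give the likeness. The wider spread of Cfd on HFD still gave the HFD libraries more weight in it. The 8 highest values of r over 24 libraries began with Gsta3 (0.941), a glutathione transferase, Kdsr (0.937), of sphingolipid synthesis, Apcdd1 (0.914), a Wnt inhibitor, and Mogat1 (0.913). After them came Cyp2e1 (0.905), Gpt2 (0.901), a mitochondrial alanine aminotransferase, Sqor (0.898) and Ebf1 (0.898), a transcription factor of adipocytes and B cells. Mogat1, Cyp2e1 and Sqor were among the first 8 by both measures, and 31 genes were among the first 100 by both. At r of at least 0.8 there were 134 genes over 24 libraries, 7 with Spearman's rho, and 756 over the 12 HFD libraries alone. For Gsta3 the r was 0.98 over the HFD libraries and -0.13 over the chow libraries, and for Apcdd1 it was 0.96 and 0.06. For Sqor, Cyp2e1 and Kdsr it was 0.903, 0.915 and 0.952 over the HFD libraries and 0.811, 0.786 and 0.725 over the chow libraries. These likenesses share the libraries with the adipocyte and macrophage markers above. On HFD the adipocyte markers moved with Cfd and the macrophage markers against it.

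**Figure D5:**
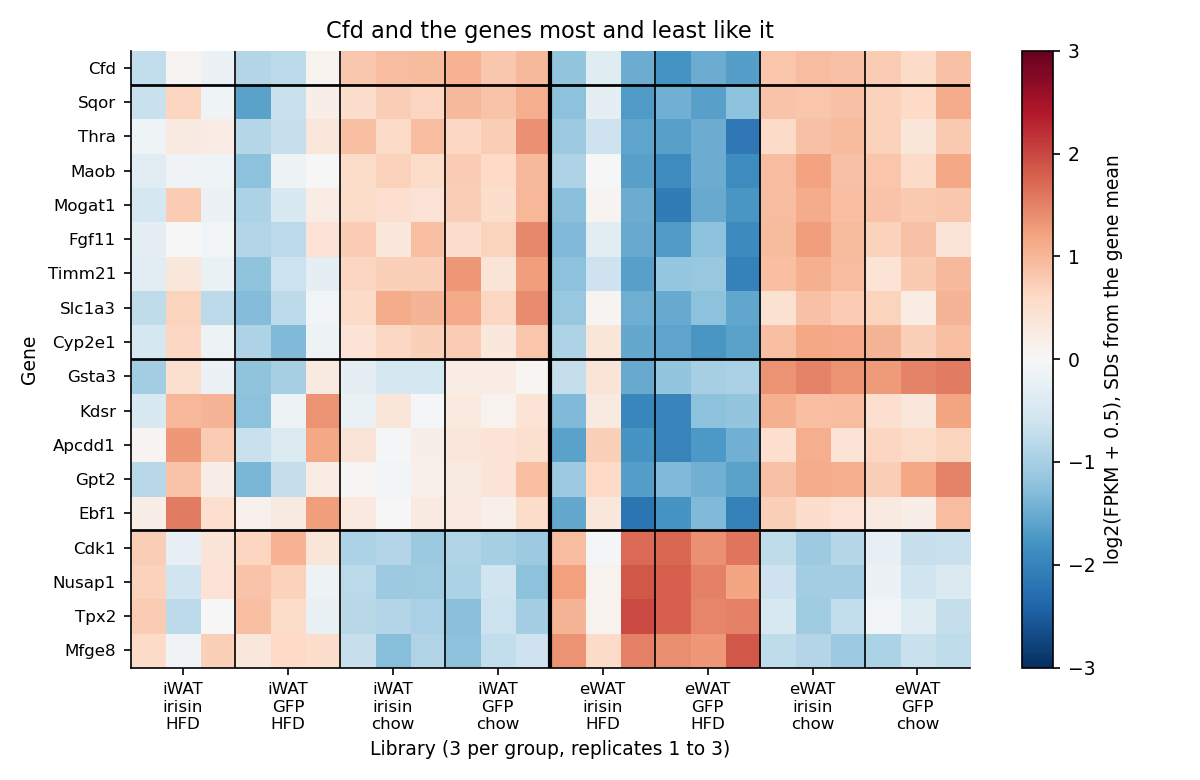
log2(FPKM + 0.5) in SDs from each gene's mean over 24 libraries (columns, 3 per group) for Cfd (top row), the 8 genes with the highest r over 24 libraries, 5 further genes with the highest r of deviations from group means, and the 4 genes with the lowest r; red is above and blue below the gene mean. In eWAT irisin HFD, replicate 2 stands apart from replicates 1 and 3 for Cfd (1812 FPKM, against 429 and 259.3 FPKM) and for most of the other genes. The genes were picked by their r with Cfd in these libraries, so this likeness follows in part from the choice.

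Rescaling to equal summed FPKM without Cfd moved the median log2 difference of all genes to -0.14 in iWAT irisin, 0.14 in eWAT GFP and -0.12 for irisin against GFP in iWAT on HFD, and voom moved it to -0.17 in iWAT irisin. The 4 diet differences of Cfd lay between -6.01 and -2.87 in every setting run other than those that left out 1 library. The split of calls was more sensitive. In iWAT irisin 778 genes rose and 675 fell, against 575 and 792 with that rescaling and 560 and 816 with voom. In eWAT GFP 2396 rose and 1914 fell, against 2150 and 937 with that rescaling and 2117 and 2341 with upper quartile scaling. In eWAT irisin 1541 rose and 1290 fell, against 999 and 562 with that rescaling, 1350 and 1640 with upper quartile scaling and 1329 and 1480 with voom.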

How the data were processed

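The authors aligned reads with HISAT2 2.0.5 and counted them per gene with featureCounts 1.5.0-p3, per the submitters' processing notes, and deposited FPKM values with gene positions and lengths. The genome build and the strand setting are not given in the sources used here. Another 8 numeric columns of the deposited table were not used. Each FPKM value was a whole multiple of 1 read for 100% of values, within a tolerance of 0.01, which gave 14145644 to 19726771 gene reads per library. No library was a copy of another.

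Genes with at least 0.5 FPKM in 3 libraries of a depot were fitted as log2(FPKM + 0.5) with limma 3.58.1 in R 4.3.3, with 4 groups of a depot in 1 fit, moderated variances that follow the mean, and Benjamini-Hochberg adjustment over all genes tested. An adjusted p under 0.05 counted as a call. An exact permutation test of 3 against 3 libraries could not give a p below 0.1. Cfd and the gene lists were chosen with earlier results of these data known. Named were the genes most and least like Cfd (8 and 4 over 24 libraries, 8 over deviations), those within 100 kb, the alternative pathway, Adipoq, Lep and Retn, and of each other list up to 4 called genes with the smallest adjusted p. C1s1 was named after its values were seen. Whole-transcript sharing was checked in GENCODE M21, and promoters are those of RefSeq. The alternatives were other pseudocounts, filters and scalings, a replicate block, a fit of the compared groups alone, voom on recovered reads, and leaving out libraries; the 12 HFD libraries alone for likeness were chosen after seeing the data. Matplotlib 3.10.9 under Python 3.11.15 drew the figures.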

Additional observations from a re-analysis of the deposited data

Results flagged for a closer look

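The genes below were listed because their HFD and chow libraries lay apart in opposite directions in the 2 depots of mice with the same vector. The difference between the depots was not tested. Values are log2 differences of HFD minus chow. In irisin mice, the complement receptor C3ar1 was at -1.17 in iWAT and 2.63 in eWAT, C5ar1 at -1.68 in iWAT and 1.90 in eWAT, and C5ar2 at -0.88 in iWAT and 1.75 in eWAT. In irisin mice C1qb was at -1.78 in iWAT and 1.32 in eWAT, and Metrnl, a secreted protein gene, at -1.46 in iWAT and 1.40 in eWAT. Of these values the eWAT ones passed the limma test and the iWAT ones did not. Adipoq in irisin mice was at 0.28 in iWAT and -0.96 in eWAT, and Cfb in GFP mice at 0.38 in iWAT and -0.55 in eWAT; none of these 4 values passed. Cfd was lower on HFD in both depots and is not among them.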

How the results depend on the processing

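The 8 Cfd differences moved by less than 1 SD between libraries in each of 80 refits with other settings, and the 4 diet differences lay between -6.01 and -2.87. Counts of calls depended more on the setting. In iWAT GFP, diet calls numbered 161 with no filter (1 complement gene), 0 with only the compared groups fitted (0 complement genes) and 251 without the 4 libraries rich in other tissue (1 complement gene). In iWAT irisin they numbered 894 with no filter, and 18 complement genes were called with only the compared groups fitted. In eWAT GFP there were 2670 without the tissue-rich libraries. In eWAT irisin there were 1561 with rescaling without Cfd and 1393 with only the compared groups (6 complement genes). Irisin against GFP gave 3 calls in iWAT on HFD and 1 on chow with no filter. In eWAT it gave 1 on either diet with a pseudocount of 0.1 or without the tissue-rich libraries, 2 on HFD and 3 on chow with no filter, and 4 on chow with only the compared groups. With 1 library left out, diet calls ranged over 266 to 1211 in iWAT irisin, 0 to 494 in iWAT GFP, 1116 to 4165 in eWAT irisin and 2643 to 4025 in eWAT GFP, and complement calls over 5 to 11, 0 to 7, 8 to 18 and 13 to 16. Vector calls ranged over 0 to 7 in iWAT on chow, 0 to 5 in eWAT on HFD and 0 to 1 in eWAT on chow. The cause of these moves was not tested. Relative to Adipoq alone, the log2 Cfd ratio in eWAT GFP was -4.32 in place of -5.26. Spearman's rho gave 34 genes at 0.9 or above, 54 at -0.9 or below and 7 for deviations at 0.8 or above, and 756 of the last kind were found over the HFD libraries alone. Signs turned for Adipoq in iWAT GFP (0.037 without the tissue-rich libraries) and for Cfp in eWAT GFP (0.0028 with rescaling without Cfd, 0.0022 without the tissue-rich libraries). With 1 library left out, Adipoq in iWAT GFP ran from -0.51 to 0.037, Cfb in iWAT irisin from -0.25 to 0.083, Cfb in eWAT irisin from -0.42 to 0.052 and Cfp in eWAT irisin from -0.18 to 0.042. Whether replicate numbers pair the libraries is not given in the labels, and correlations between libraries do not settle it. Within a depot, 13 of 36 same-numbered pairs had deviations with a correlation above 0.1 (median 0.04), against 15 of 72 other pairs (median -0.04). Between depots, with the same vector and diet, 2 of 12 same-numbered and 5 of 24 other pairs exceeded 0.1 (medians of 0.03 and -0.009). With a replicate block, diet calls were 1411 in iWAT irisin, 281 in iWAT GFP, 2464 in eWAT irisin and 4039 in eWAT GFP. Of the named genes, the block ended the calls of Elane in iWAT irisin (-1.54), C4b in eWAT GFP (-0.52) and R3hdm4 in eWAT irisin (-0.30). Depth does not limit Cfd, but it limits Elane, with as few as 1 read in a library, and Masp1 in iWAT.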
